A study of Mus musculus with 45 samples.

Results

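The 10 genes described here were Pou5f1, Sox2, Nanog, Klf4, Sall4, Prdm14, Esrrb, Tfap2c, Lin28a and Zfp42, which encode factors of the pluripotent cells of the early mouse embryo. They were taken by gene symbol, and all 10 were present among the 26214 genes of the deposited expression table. Their transcripts were followed in fully grown oocytes (FGOs) and in late two-cell embryos by RNA-seq. The values were TPM, in which reads are divided by gene length and each library is scaled to the same sum, so that levels of different genes can be set side by side. Of the 22 libraries, 21 were used: 3 control and 3 K36M FGO libraries, 7 control two-cell embryos and 8 two-cell embryos derived from K36M oocytes. Control two-cell replicate 4 was left out because of a technical problem with that library.

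All females carried a floxed H3f3b K36M allele beside a wild-type H3f3b allele (H3f3b K36M-flox/+) on a mixed C57BL/6J and 129 background. H3f3b encodes the histone variant H3.3, and in the K36M form a methionine stands in place of a lysine. The study reported that K36M FGOs lost dimethylation of that histone residue, while its trimethylation was nearly unchanged. The control females carried no Cre. The K36M females also carried Gdf9-Cre, which is driven by an oocyte promoter, so that the K36M form was switched on in growing oocytes and not in other cells. FGOs came from females 3 to 4 weeks old, and each FGO library was a pool of oocytes. Each two-cell library was a single embryo, collected 31 to 32 h after in vitro fertilization of superovulated eggs with JF-1 sperm. An embryo of a K36M mother may or may not have inherited the K36M allele, and the labels do not say which. No label says that replicates came from separate animals, so the p-values measure only the spread between these libraries, which may be technical.

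The POU factor encoded by Pou5f1 and the HMG-box factor encoded by Sox2 bind DNA as a pair and, with the homeobox factor encoded by Nanog, hold embryonic stem cells and the inner cell mass in the pluripotent state. Klf4, Esrrb, Tfap2c, Prdm14, Sall4 and Zfp42 encode further DNA-binding factors of this network, and Lin28a encodes an RNA-binding protein that blocks maturation of let-7 microRNAs. Mouse oocytes store transcripts for the first cleavages, and the embryo's own genome is broadly transcribed for the first time at the late two-cell stage, before any pluripotent lineage has formed.

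Oocyte and zygotic markers stood where the labels placed the stages. The summed TPM of 8 oocyte genes (Gdf9, Bmp15, Zp1, Zp2, Zp3, Figla, Nobox and Ooep) was 12278 to 14179 in the FGO libraries and 436 to 1224 in the embryos. That of 8 genes of zygotic genome activation, among them Zscan4d, Usp17lc and Zfp352, was 34.5 to 73.9 in FGOs and 270.4 to 2440.0 in embryos. The summed TPM of 12 granulosa and cumulus genes was 64.8 to 81.0 in FGOs and 0.959 to 145 in embryos, and that of 5 stroma and vessel genes, mostly Pecam1, was 56.1 to 68.0 and 23.4 to 117. Blood genes (5) reached 3.21 in FGOs and 276 in 1 K36M embryo, and sperm genes (4) reached 31.2 in FGOs and 55.2 in embryos. TPM keeps no read depth, so the number of reads behind a value is unknown. Between 16707 and 18559 genes were above 0 in the FGO libraries, against 12115 to 17329 in the control and 10894 to 14879 in the K36M embryos. Replicates of FGOs were more alike (Spearman's rho across genes 0.935 to 0.950) than single embryos (0.705 to 0.854). TPM is a share of each library, so a transcript that is lost and a rise in the rest of the RNA cannot be told apart.

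FGOs already held transcripts of 8 of the 10 genes at a mean TPM of 1 or more. In control FGOs the order of mean TPM was Sall4 (444), Pou5f1 (265), Lin28a (106), Esrrb (75.4), Tfap2c (36.2), Klf4 (12.9), Zfp42 (2.50), Sox2 (1.56), Prdm14 (0.130) and Nanog (0.0291). Neighbours in this order did not overlap between libraries, except Zfp42 with Sox2 and Prdm14 with Nanog. Sall4 and Pou5f1 were above 98.7% and 97.2% of all genes in the table by mean TPM, whereas Sox2 was near the middle, above 50.7%. In control two-cell embryos the order was Klf4 (412), Pou5f1 (311), Sall4 (231), Zfp42 (163), Tfap2c (130.4), Lin28a (106), Esrrb (75.4), Sox2 (60.0), Nanog (5.91) and Prdm14 (4.83), and every neighbouring pair overlapped between embryos. Klf4 moved from above 69.1% of all genes in control FGOs to above 98.6% in control embryos, and Zfp42 from 54.5% to 94.1%. In K36M embryos Pou5f1 (mean TPM 473) stood before Klf4 (339), their ranges overlapped, and the order of the other genes was that of the control embryos.

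**Figure D1:**
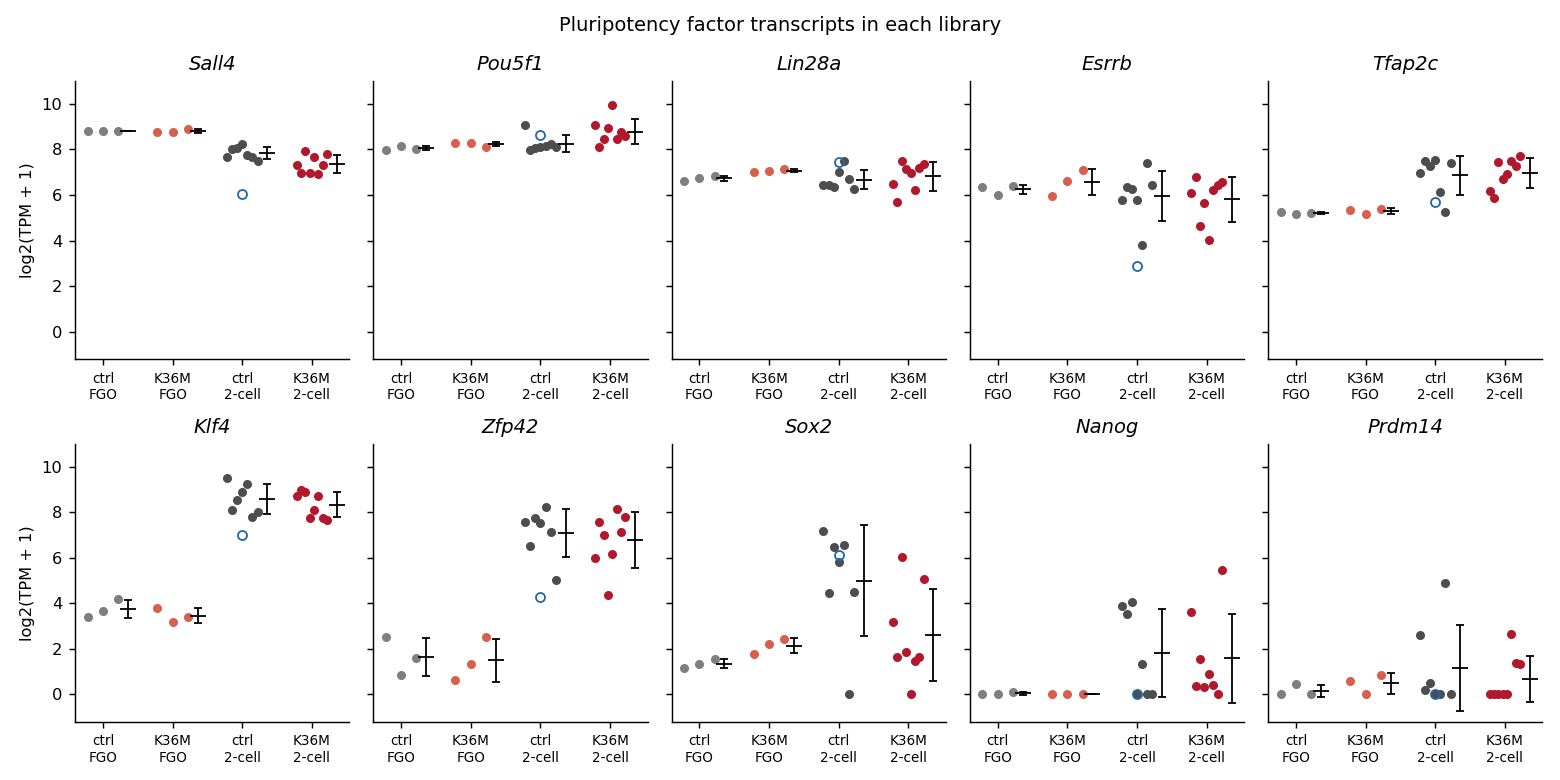
Expression of the 10 genes in each library, as log2(TPM + 1). Each point is 1 library (a pool of FGOs or a single embryo), the bar beside each group is its mean ± SD, and the open blue circle is control two-cell replicate 4, which enters no mean. Klf4 and Zfp42 stand higher in all embryos than in all FGOs and Sall4 stands lower, whereas Sox2, Nanog and Prdm14 are spread from 0 upwards among the embryos.

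Differences were tested with limma on log2(TPM + 1), for genes whose TPM averaged 1 or more over the fitted libraries. P-values were adjusted by Benjamini-Hochberg across every gene tested, and 0.05 was the threshold. Values in brackets after a log2 fold change give its standard error (SE). On this scale the change of a gene at low TPM comes out too small. Between control FGOs and control two-cell embryos, 4 of the 10 genes rose (Klf4, Zfp42, Sox2 and Tfap2c) and 1 fell (Sall4). Among all 17358 genes tested, 13.4% were higher and 13.2% were lower in the embryos. The groups did not overlap for 3 of the 10 genes (Klf4, Zfp42 and Sall4), against 32.3% of all genes tested. Nanog and Prdm14 passed the filter on low values only through the embryos, and neither passed the test. Among genes that averaged a TPM of 1 or more in FGOs, 4 of the 8 members were higher and 1 was lower, beside 12.2% and 17.3% of 13276 genes. The median log2 fold change was 0.92 over these 8 members and -0.48 over the 13276 genes. The members were chosen with earlier results of these data known, so these shares and medians are a description. Stage cannot be told apart from pooling, collection, the paternal JF-1 genome and the number of amplification cycles, in which FGO and embryo libraries also differed.

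From K36M FGOs to K36M oocyte-derived embryos, a comparison that shares no library with the first, 3 of the 10 genes rose (Klf4, Zfp42 and Tfap2c) and 1 fell (Sall4), beside 10.8% of all genes higher and 18.6% lower. The groups did not overlap for these 4 genes, against 26.2% of all genes. The median log2 fold change was 0.51 over the 8 members that averaged a TPM of 1 or more in FGOs and -0.78 over the 13276 genes at that level.

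**Figure D2:**
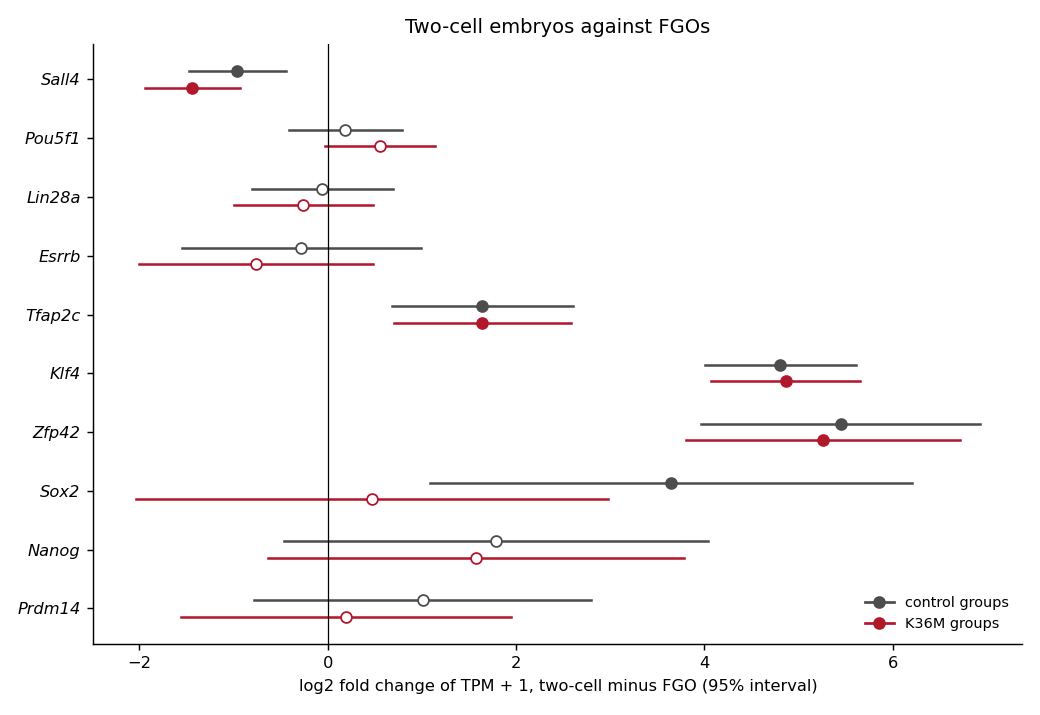
Log2 fold change of TPM + 1, two-cell embryos minus FGOs, for each gene in the control groups (grey) and the K36M groups (red), with 95% intervals from limma. Filled points passed an adjusted p of 0.05. Klf4 and Zfp42 lie near 5 in both genotypes, Sall4 lies below 0 in both, and the intervals of Sox2 are wide.

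Of the core factors, Pou5f1, whose protein is Oct4, is on chromosome 17 (mm10, 35506032 to 35510777). Its TPM was 253, 285 and 256 in control FGOs and 309, 310.0 and 277 in K36M FGOs. Control embryos ran from 248 to 535 (median 278) and K36M embryos from 274 to 979 (median 405). Oocytes and embryos overlapped in both genotypes. The log2 fold change of embryos against FGOs was 0.19 (SE 0.29, limma adjusted p = 0.676, 95% interval -0.41 to 0.79) in the control and 0.56 (SE 0.28, adjusted p = 0.151, interval -0.03 to 1.14) in the K36M groups. Near-identical Pou5f1 pseudogenes (Pou5f1-rs4 and Pou5f1-rs8 among them) are separate rows of the table, and the division of reads between them and Pou5f1 is uncertain.

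Sox2 is on chromosome 3 (34649995 to 34652461), inside the long non-coding RNA gene Sox2ot. In control FGOs its TPM was only 1.22, 1.5 and 1.94. The 7 control embryos, replicates 1 to 3 and 5 to 8 in order, held 143, 20.8, 88.3, 54.6, 91.7, 0 and 21.5. Thus 6 of the 7 stood well above every FGO library and 1 was listed at 0. The log2 fold change was 3.64 (SE 1.24, limma adjusted p = 0.0316). This call did not hold in every alternative. The limma adjusted p was 0.0843 to 0.105 with any 1 control FGO library left out and 0.136 with a pseudocount of 0.1. It was 0.0502 to 0.0558 without control embryo 1, 3 or 5. The log2 fold change itself ran from 3.28 (without control embryo 1) to 3.78 (pseudocount of 0.1) in these alternatives. In K36M FGOs the TPM of Sox2 was 2.44, 3.65 and 4.33, and in the 8 K36M embryos it was 7.98, 2.12, 64.1, 2.62, 0, 1.77, 2.11 and 32.4. K36M FGOs and embryos overlapped, and the log2 fold change of 0.47 (SE 1.22, limma adjusted p = 0.811, 95% interval -2.04 to 2.98) did not pass the test. Sox2ot had a mean TPM of 0.251 to 1.04 in the 4 groups.

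Nanog is on chromosome 6 (122707489 to 122714633). It was listed at 0 in 5 of the 6 FGO libraries and at 0.0872 in the other. Among control embryos it was 13.8, 10.5, 15.5 and 1.54 in replicates 1, 2, 3 and 6 and listed at 0 in replicates 5, 7 and 8. K36M embryos ran from 0 to 42.5 with a median of 0.589. The log2 fold changes of 1.79 (control) and 1.58 (K36M) did not pass the test (SEs 1.09 and 1.07, limma adjusted p = 0.242 and 0.295). Prdm14, a PR-domain factor of pluripotent and primordial germ cells on chromosome 1 (13113428 to 13127163), was at most 0.823 in any FGO library. It was listed at 0 in 3 of 7 control and 5 of 8 K36M embryos. Its highest value was 28.2, in control embryo 7, the embryo in which Sox2 was listed at 0. The log2 fold changes of Prdm14 were 1.01 and 0.19 (SEs 0.86 and 0.85, limma adjusted p = 0.42 and 0.897).

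Klf4, a zinc finger factor and 1 of the reprogramming factors, is on chromosome 4 (55527137 to 55532475). Its TPM was 9.53, 11.8 and 17.3 in the control FGO libraries, and the control embryos ran from 219 to 716 with a median of 367. In K36M FGOs it was 12.9, 8.05 and 9.44, and in K36M embryos 203 to 501 with a median of 345. Every embryo lay above every FGO library in both genotypes. Klf4 rose by a log2 fold change of 4.81 (SE 0.39, limma adjusted p = 1.77e-09) in the control groups and of 4.86 (SE 0.38, adjusted p = 9.35e-10) in the K36M groups.

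Zfp42, which encodes the zinc finger protein Rex1, a marker of the naive pluripotent state, is on chromosome 8 (43295067 to 43307009). It was low and uneven in FGOs, with a TPM of 4.71, 0.794 and 2.01 in the control and 0.567, 1.51 and 4.74 in the K36M libraries. Control embryos ran from 31.8 to 295 (median 182) and K36M embryos from 19.6 to 279 (median 133). The lowest embryo was therefore above the highest FGO library. The log2 fold change was 5.45 (SE 0.72, limma adjusted p = 3.60e-06) in the control and 5.26 (SE 0.70, adjusted p = 4.07e-06) in the K36M groups.

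Tfap2c, an AP-2 factor used in trophectoderm, germ cells and the early embryo, is on chromosome 2 (172545678 to 172558622). Its TPM was even among FGO libraries, at 37.7, 35.2 and 35.8 in the control and 40.1, 34.8 and 41.2 in the K36M group. In embryos it ran from 36.9 to 184 (median 152) in the control and from 57.8 to 207 (median 137) in the K36M group. The lowest control embryo fell among the control FGO libraries, whereas the K36M groups did not overlap. Tfap2c rose by a log2 fold change of 1.64 in both genotypes (SE 0.46 in each, limma adjusted p = 0.0107 and 0.0082).

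Sall4, a zinc finger factor that is also needed during oocyte growth, is on chromosome 2 (168748332 to 168767201), where the long non-coding RNA gene Gm14261 overlaps it. It was the highest of the 10 genes in FGOs and even in the controls, with a TPM of 447, 441 and 445 in the control libraries. Only 1.12% of genes of like mean varied less between the control FGO libraries. The K36M FGO libraries held 432, 431 and 475, and 25.6% of like genes varied less there. Control embryos ran from 176 to 299 (median 216) and K36M embryos from 120.2 to 244 (median 159), so that every embryo lay below every FGO library. Sall4 fell by 0.96 on the log2 scale in the control groups (SE 0.25, limma adjusted p = 0.00578) and by 1.44 in the K36M groups (SE 0.24, adjusted p = 8.65e-05). Whether reads of Gm14261 (mean TPM 22.7 to 31.0 in the 4 groups) were separated from Sall4 by strand is not given in the sources used here.

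Esrrb and Lin28a did not pass the test between stages in either genotype. Esrrb, an orphan nuclear receptor on chromosome 12 (86361117 to 86521628), had a TPM of 80.3, 63.4 and 82.5 in control FGOs and of 61.9, 97.1 and 137 in K36M FGOs. Its embryos ran from 12.8 to 166 (median 74.7) in the control and from 15.3 to 109 (median 70.0) in the K36M group. Lin28a, on chromosome 4 (134003330 to 134019196), had a TPM of 97.7, 106 and 113 in control FGOs, and control embryos ran from 75.7 to 178 (median 86.6). In K36M FGOs it was 126, 133 and 141, and in K36M embryos 50.6 to 177 (median 131). The log2 fold change between stages was -0.28 (control) and -0.76 (K36M) for Esrrb, with 95% intervals of -1.54 to 0.99 and -2.0 to 0.48. For Lin28a it was -0.06 and -0.26, with intervals of -0.81 to 0.69 and -1.0 to 0.48. Oocytes and embryos overlapped for both genes, and the intervals of Esrrb reach beyond 1 log2 unit.

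The promoters of Klf4, Zfp42 and Sox2, which had the largest called rises among the 10 genes in the control groups, are shown with those of Pou5f1 and Nanog, the other core factors. Each sequence is the 250 bases before the gene start in RefSeq (GRCm38.p6, the assembly of mm10), read 5′ to 3′ on the gene's strand. Promoters of 7 of the 10 genes were found there, and those of Sall4, Tfap2c and Prdm14 were not used here. Capitals mark matches, on either strand, to the octamer core ATGCAAA bound by POU factors, the SOX core ACAATG and the GC box GGGCGG bound by Sp and Klf factors. The intervals are chr4:55532476-55532725 (minus strand) for Klf4, chr8:43307010-43307259 (minus strand) for Zfp42, chr3:34649745-34649994 (plus strand) for Sox2, chr17:35505782-35506031 (plus strand) for Pou5f1 and chr6:122707239-122707488 (plus strand) for Nanog.
Klf4: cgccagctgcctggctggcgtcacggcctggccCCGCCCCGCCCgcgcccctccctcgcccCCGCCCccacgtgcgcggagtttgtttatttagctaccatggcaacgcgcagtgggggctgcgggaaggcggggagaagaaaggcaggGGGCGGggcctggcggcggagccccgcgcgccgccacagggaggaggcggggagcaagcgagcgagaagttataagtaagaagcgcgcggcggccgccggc
Zfp42: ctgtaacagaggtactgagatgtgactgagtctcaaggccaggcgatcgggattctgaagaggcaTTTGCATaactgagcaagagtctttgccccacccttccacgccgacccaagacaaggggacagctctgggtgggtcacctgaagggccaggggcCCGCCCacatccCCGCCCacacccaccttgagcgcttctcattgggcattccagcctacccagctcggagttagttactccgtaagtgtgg
Sox2: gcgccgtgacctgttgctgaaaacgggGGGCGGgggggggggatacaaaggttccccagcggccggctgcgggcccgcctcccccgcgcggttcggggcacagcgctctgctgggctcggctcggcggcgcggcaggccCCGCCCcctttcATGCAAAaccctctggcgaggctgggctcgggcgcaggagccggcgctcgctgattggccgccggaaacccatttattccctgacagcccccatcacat
Pou5f1: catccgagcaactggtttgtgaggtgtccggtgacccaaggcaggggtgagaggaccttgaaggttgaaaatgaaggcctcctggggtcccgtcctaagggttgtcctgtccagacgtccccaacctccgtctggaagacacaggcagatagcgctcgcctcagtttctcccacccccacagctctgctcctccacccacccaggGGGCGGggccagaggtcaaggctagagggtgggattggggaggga
Nanog: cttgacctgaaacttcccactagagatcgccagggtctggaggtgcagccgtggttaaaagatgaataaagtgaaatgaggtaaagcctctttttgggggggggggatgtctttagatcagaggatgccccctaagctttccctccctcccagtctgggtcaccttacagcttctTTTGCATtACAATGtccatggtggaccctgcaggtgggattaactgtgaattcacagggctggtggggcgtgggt

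The octamer core had 1 match each in Zfp42 (from position -185 relative to the gene start), Sox2 (-99) and Nanog (-75), and not in the windows of Klf4, Pou5f1, Esrrb or Lin28a. Among 32817 RefSeq promoters, 4.13% held it in the same window. In Nanog a SOX core began at -67, directly after the octamer match with 1 base between them, and 10.7% of promoters held a SOX core. Lin28a also had a SOX core, from -96, although its window lies at a start other than that of the annotated gene. GC boxes numbered 4 in Klf4, 2 of which overlap by 1 base, 2 each in Zfp42 and Sox2, 1 in Pou5f1 and 0 in Nanog, beside 32.7% of promoters with at least 1. A match of letters is a description and does not show binding.

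K36M and control FGOs were compared to see whether the 10 genes differed in the oocyte. Of the 8 genes tested, none passed an adjusted p of 0.05 in limma, beside 0.00726% of 13775 genes (1 gene). Without K36M FGO replicate 1 the number of genes past the threshold was 300, none of them a member. The study, which ran edgeR on read counts, called more genes between these FGO groups than limma did here on TPM. Sox2 and Lin28a had an unadjusted p under 0.05, beside 10.5% of all genes, and were also the 2 members whose groups did not overlap, beside 15.6% of all genes. All 3 K36M libraries lay above the controls for Sox2 (mean TPM 3.47 ± 0.96 against 1.56 ± 0.36, SD, n = 3 each). The log2 fold change of Sox2 was 0.79 (SE 0.33, limma adjusted p = 0.46). Lin28a was likewise higher, at 133.5 ± 7.6 against 105.8 ± 7.9 (SD, n = 3 each). Its log2 fold change was 0.33 (SE 0.10, limma adjusted p = 0.381). Sall4 differed by 0.0047, with a 95% interval of -0.15 to 0.16, and Tfap2c by 0.09, with an interval of -0.20 to 0.38. The other 4 log2 fold changes were 0.17 (Pou5f1), 0.32 (Esrrb), -0.30 (Klf4) and -0.15 (Zfp42). Leaving out 1 library moved Esrrb between 0.0497 (without K36M replicate 3) and 0.614 (without K36M replicate 1) and Klf4 between -0.482 and -0.0814 (without control replicates 1 and 3). Zfp42 changed sign, from -0.66 (without K36M replicate 3) to 0.283 (without control replicate 1). H3f3b itself had a TPM of 265 to 308 in control and 377 to 418 in K36M FGOs. These values do not separate the K36M from the wild-type allele and so check nothing about the genotype.

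In two-cell embryos, which addressed whether K36M in the oocyte was followed by a difference in the next generation, none of the 10 genes passed the adjusted threshold, and 0% of 17362 genes did. Pou5f1 and Sox2 had an unadjusted p under 0.05, beside 7.71% of all genes. No member had groups that did not overlap, and 0.115% of all genes did. Mean TPM of Pou5f1 was 473 ± 221 (SD, n = 8) in K36M and 311 ± 100 (SD, n = 7) in control embryos, a log2 fold change of 0.54 (SE 0.25, limma adjusted p = 0.631, 95% interval 0.02 to 1.07). Mean TPM of Sox2 was 14.1 ± 22.8 (SD, n = 8) in K36M and 60.0 ± 50.6 (SD, n = 7) in control embryos, a log2 fold change of -2.38 (SE 1.00, limma adjusted p = 0.593, 95% interval -4.45 to -0.31). Leaving out 1 embryo moved it between -3.21 (without control embryo 7, limma adjusted p = 0.315) and -2.01. Of the K36M embryos 5 were at 2.62 or less and 3 at 7.98 or more. Of the 7 control embryos 6 were at 20.8 or more and 1 was listed at 0, as was 1 K36M embryo. These cut-offs were chosen after the values were seen.

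The remaining log2 fold changes in embryos lay between -0.49 (Prdm14) and 0.13 (Lin28a), with Sall4 at -0.48 (SE 0.25, limma adjusted p = 0.667). All genes tested had a median of -0.26 in this comparison, which moved to -0.036 under quantile normalization, and the median of the 10 genes was -0.25. Relative to the median of all genes, Pou5f1 differed by 0.80 and Sox2 by -2.12, and after quantile normalization by 0.52 and -2.16. The numbers of genes above 0 overlapped between the K36M embryos (10894 to 14879) and the control embryos (12115 to 17329). Both ends of the K36M range were lower, and whether this bears on the differences here was not tested.

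**Figure D3:**
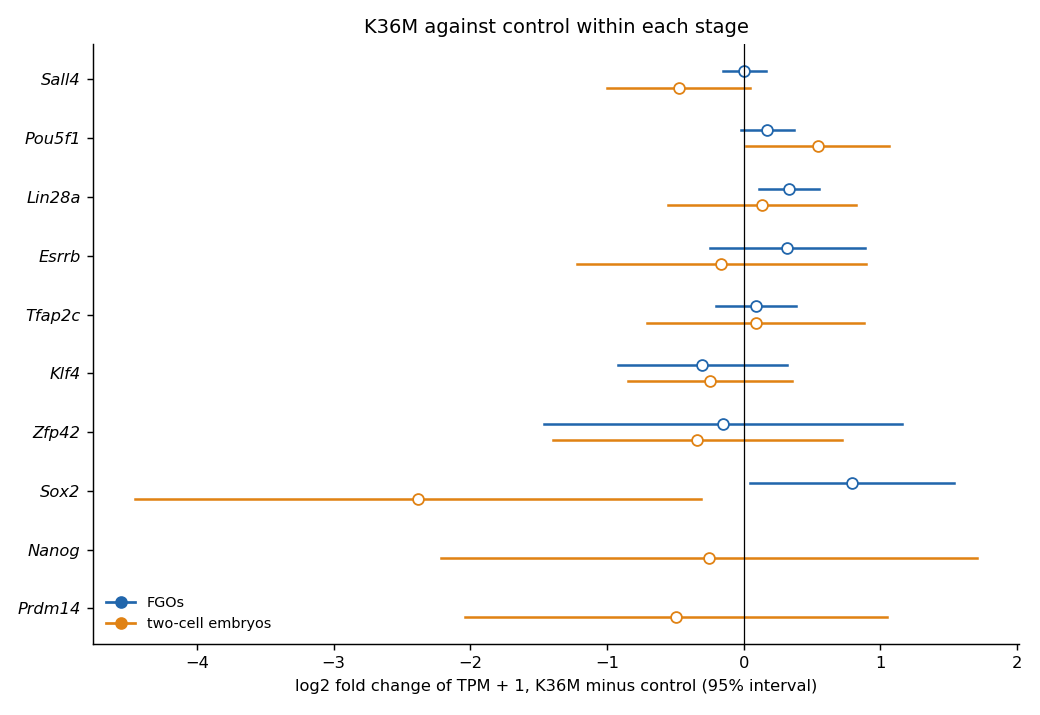
Log2 fold change of TPM + 1, K36M minus control, in FGOs (blue) and two-cell embryos (orange), with 95% intervals from limma. Open points did not pass an adjusted p of 0.05. Nanog and Prdm14 were not tested in FGOs. Sox2 lies above 0 in FGOs and below 0 in embryos with a wide interval, and most other intervals cross 0.

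Whether the step from oocyte to embryo itself differed with genotype was tested by the interaction of stage and genotype. None of the 10 genes passed the adjusted threshold in limma (0% of 17358 genes), and none had an unadjusted p under 0.05, beside 1.15% of all genes. That share is itself below 0.05, the share expected with no difference at all. Pools and single embryos shared 1 spread per gene in this fit. The lack of calls among the members therefore does not show that no difference exists. Sox2 had the largest estimate among the members. It was higher in K36M than in control FGOs and lower in K36M than in control embryos, an interaction of -3.18 (SE 1.74, limma adjusted p = 1.00, 95% interval -6.76 to 0.41). The log2 interaction was 0.37 for Pou5f1, with an interval of -0.47 to 1.21, and 0.06 for Klf4, with an interval of -1.07 to 1.18. The medians were -0.21 over the 10 genes and -0.27 over all genes tested. Sox2 rising in the control groups and not in the K36M groups is therefore not shown to be a difference between genotypes.

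Single embryos varied more in some members than in others, and several of these spreads rested on 1 embryo. In control embryos the SD of log2(TPM + 1) was 2.43 for Sox2, and 96.2% of genes of like mean (within 0.5 log2 units) varied less. Without control embryo 7, where Sox2 was listed at 0, the SD was 1.13 and the share 82.8%. The SD was 1.05 for Zfp42 (90.3% of like genes varied less) and 1.10 for Esrrb (81.2%). It was 0.583 (53.8%) for Zfp42 without embryo 8 and 0.59 (50.1%) for Esrrb without embryo 6. Sall4 varied little, at 0.28 (8.75%), and its SD stayed between 0.235 and 0.299 with any 1 control embryo left out. Pou5f1 had an SD of 0.38 (28.4%), which was 0.0973 without embryo 1, and Lin28a one of 0.44 (21.3%), which was 0.279 without embryo 6. In K36M embryos the corresponding shares were 59.9% for Sox2, 87.5% for Zfp42, 56.1% for Esrrb, 13.9% for Sall4, 63.4% for Pou5f1 and 37.5% for Lin28a. The share was 68.0% for Zfp42 without K36M embryo 4 and 19.4% for Pou5f1 without K36M embryo 5. Control embryo 7, with Sox2 at 0 and Prdm14 at its highest, had the fewest genes above 0 among the control embryos (12115) and a summed TPM of 1062 for the zygotic genes, inside the range of the others. K36M embryo 8 had the highest Nanog (42.5) and held all 10 genes at a TPM of at least 1, with 11178 genes above 0 and the lowest zygotic sum of the embryos used (270.4). Control embryo 1 was the other embryo with all 10 genes at a TPM of at least 1.

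The genes whose profile over the 21 libraries was most like a member's were found by the root mean square difference of centred log2(TPM + 1), over 17358 genes. The closest to Klf4 was Tbx3 at 0.40, where the spread of Klf4 about its own mean was 2.24, and the next was Dmbx1 at 0.53. Tbx3 encodes a T-box factor that is itself in the pluripotency network. Zfp42 was most like Tle3 (0.84) and Clp1 (0.88), with a spread of its own of 2.61. Tfap2c was most like Ccna2, which encodes cyclin A2 (0.44, own spread 0.95), and Larp4 (0.47). Sall4 was most like G3bp2 (0.31, own spread 0.65) and Trim24 (0.35), which were also higher in FGOs. The nearest to Sox2 were Srd5a1 (1.18) and Fgfr3 (1.24), beside an own spread of 2.22, and to Nanog Tmprss7 (1.01) and Gm34632 (1.06), beside 1.70. Pou5f1 was nearest to Tmtc1 (0.36, own spread 0.48) and Nsd1 (0.37) and Lin28a to Ccdc50 (0.33, own spread 0.45) and Ubap2 (0.35), which are distances close to the spreads themselves. Esrrb was nearest to Ccdc115 (0.54, own spread 0.88) and Setd3 (0.60), and Prdm14 to Retreg1 (0.56, own spread 1.22) and Vmn2r14 (0.64). These libraries share stage and single-embryo effects, and no test was made.

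Beside the 10 genes, 33 other genes of the pluripotency network were examined, of which 30 were tested between stages and Nr0b1, Tdgf1 and Lefty1 were too low. They were chosen with earlier results of these data known. Their shares and medians beside those of all genes are therefore a description and no test. In the control groups 12 rose, 2 fell and 16 did not pass the test, beside 13.4% higher and 13.2% lower among all genes tested. Of the 12, 6 genes, among them Klf5, L1td1 and Fgf4, had a mean TPM under 1 in FGOs and entered the test only through the embryos, as 10 of the 30 did, and none of the 4082 genes at that level was called lower. Of the other 20 genes, 6 rose and 2 fell (30% and 10%), beside 12.2% higher and 17.3% lower among the 13276 genes at that level. Their median log2 fold change was 0.69, beside -0.48 over those 13276 genes. Among transcription factors, 7 of 14 rose and none fell, and of the 8 whose FGO mean was a TPM of 1 or more, 3 rose (37.5%, beside the same 12.2%). Klf5, a relative of Klf4, rose from a mean TPM of 0.660 ± 0.812 (SD, n = 3) to 472 ± 109 (SD, n = 7), a log2 fold change of 8.22 (SE 0.43, limma adjusted p = 7.87e-13). Tbx3 rose by 4.79 and Mycn by 4.77 on the log2 scale. Among chromatin and RNA factors 4 of 10 rose, led by L1td1, an RNA-binding protein, at 7.57, Fbxo15 at 6.16 and Dppa4 at 3.67. Of the 9 whose FGO mean was a TPM of 1 or more, which leaves out L1td1, 3 rose and 2 fell (33.3% and 22.2%), beside 12.2% higher and 17.3% lower among all genes at that level. The genes that fell were Tcl1, a co-activator of Akt, by 2.95 and Dppa3, also called Stella, which protects the maternal genome from demethylation, by 0.86. Dppa3 remained abundant, at a mean TPM of 2904 ± 149 (SD, n = 3) in FGOs and 1618 ± 262 (SD, n = 7) in embryos. Of 6 signalling genes tested, 1 passed, near the 13.4% called higher among all genes. It was Fgf4, 1 of the 3 signalling genes that entered the test only through the embryos, and none of the other 3 was called. Fgf4 was listed at 0 in all 6 FGO libraries and had a TPM of 12.5 to 69.3 in control embryos and of 2.03 to 76.1 in K36M embryos.

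In the K36M groups 9 of these 30 genes rose and 5 fell (Dppa5a, Gbx2, Tcl1, Il6st and Dppa3), beside 10.8% higher and 18.6% lower among all genes. Of the 9, 4 entered the test only through the embryos. Of the 20 genes with a mean TPM of 1 or more in FGOs, 5 rose and 5 fell, beside 10.6% and 24.3% of the 13276 genes at that level. Between genotypes none of the 20 genes tested in FGOs and none of the 30 tested in embryos passed the adjusted threshold in limma, and 6 (30%, beside 10.5% of all genes) and 4 (13.3%, beside 7.71%) had an unadjusted p under 0.05. Of 13 trophectoderm and primitive endoderm genes, likewise chosen with earlier results known, 11 were tested between stages. In the control groups 4 rose and none fell. These were Krt18 (5.15 on the log2 scale), Tead4 (5.04), Eomes (4.17) and Pdgfra (2.40), all among the 6 lineage genes with a mean TPM under 1 in FGOs. Of all 4082 genes at that level, 17.1% were called higher and 0% lower, since they passed the filter only through the embryos. None of the 5 lineage genes with a mean TPM of 1 or more in FGOs passed. In the K36M groups Tead4 and Eomes rose, beside 11.2% of the 4082 genes. Between genotypes none of these lineage genes passed in FGOs or embryos, with an unadjusted p under 0.05 for 1 of 5 in FGOs and 1 of 11 in embryos, and none of either list passed in the interaction test, with 0 unadjusted p under 0.05.

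**Figure D4:**
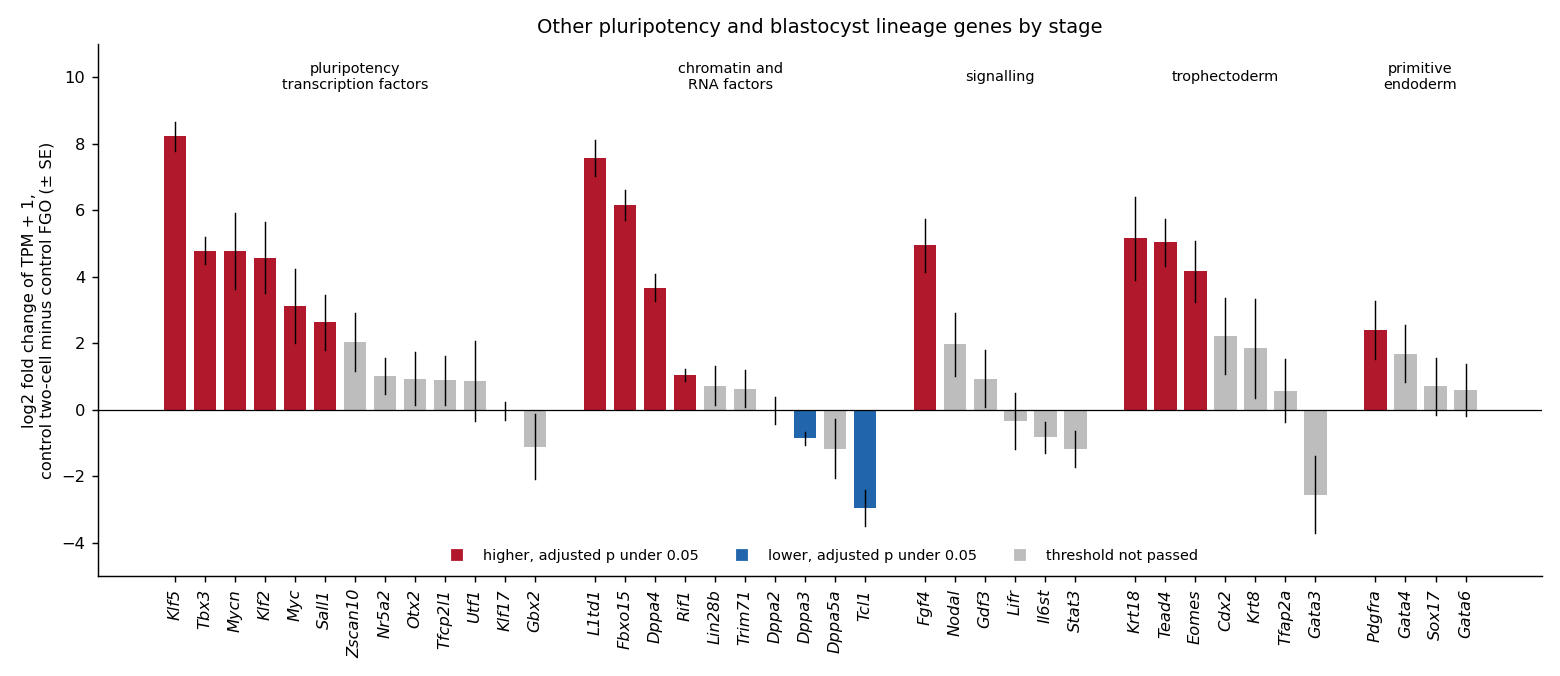
Log2 fold change of TPM + 1, control two-cell embryos minus control FGOs, for other pluripotency genes and lineage genes, of which 1 tested gene is not shown. Bars start at 0, whiskers are ± 1 SE from limma, red bars are higher and blue bars lower at an adjusted p of 0.05, and grey bars did not pass. Klf5 and L1td1 have the tallest bars (8.22 and 7.57), and Tcl1 the lowest (-2.95).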

How the data were processed

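RNA was sequenced from 6 pools of FGOs and 16 single two-cell embryos, of which control two-cell replicate 4 was not used. Groups came from the labels. The authors trimmed the reads, mapped them to mm10, removed ribosomal reads, counted genes and deposited TPM, whose sum is 1000000 in every library. Gene annotation and strand setting are not given in the sources used here. TPM keeps no depth, and no interval that needs read counts is given.

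In R 4.3.3, limma 3.58.1 (lmFit, then eBayes with the trend option) was run on log2(TPM + 1) for genes whose TPM averaged 1 or more over the fitted libraries. The Benjamini-Hochberg threshold was 0.05. FGOs (3 against 3) and embryos (8 against 7) were fitted apart. The stage and interaction contrasts came from 1 fit of 4 groups over 21 libraries, in which pools and single embryos share 1 spread per gene. The script was tested on simulated data. Gene positions and promoters came from RefSeq GRCm38.p6. Other steps used Python 3.11.15 with numpy 2.4.6, pandas 2.3.3 and matplotlib 3.10.9.

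The 10 genes, the 33 other pluripotency genes, the 13 lineage genes and the oocyte, zygotic, granulosa, stroma, blood and sperm marker lists were chosen with earlier results of these data known. All 10 members were named, up to 3 genes per direction of each list with the largest log2 fold change between control stages, and the 2 genes most like each member. Genes named beside these were chosen after their values were seen. The values of 1 listed gene are not reported here. Alternatives were a pseudocount of 0.1, quantile normalization, scaling by median of ratios, no low-value filter or one at a mean TPM of 5, eBayes without the trend, array weights, a block for the replicate number, each FGO library left out and adding control two-cell replicate 4. A further one, chosen after seeing the data, was leaving out each embryo. It was also used for the spread between embryos, but not for the interaction.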

Additional observations from a re-analysis of the deposited data

Results flagged for a closer look

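A single embryo far from the others of its group was looked for in the 10 genes on log2(TPM + 1). There were 30 groups of 7 or 8 embryos that partly share embryos. On that scale 4 lay past the 95% limit of Dixon's test where chance gives 1.5, and the same Sox2 value was counted in both of its groups. Pou5f1 was highest in control two-cell replicate 1, at a TPM of 534.7, where the other 6 control embryos lay between 248 and 303. Sox2 was lowest in control two-cell replicate 7, at a TPM of 0, both among the 7 embryos used and among all 8 with replicate 4. Sall4 was lowest in control two-cell replicate 4, at a TPM of 64.0, where the other 7 embryos lay between 176 and 299.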

How the results depend on the processing

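Of 871 values of the 10 genes under the alternatives, 814 kept their direction and their side of the threshold, 8 lost and 2 gained a call, and 47 changed sign. No called difference changed sign. The 8 lost calls were all the rise of Sox2 in the control groups. They came without any 1 control FGO library, without control embryo 1, 3 or 5, with a pseudocount of 0.1 (limma adjusted p = 0.136) and with no filter (0.053). The cause was not tested. Array weights added Nanog in the control (2.09, adjusted p = 0.00348) and Pou5f1 in the K36M stage comparison (0.531, adjusted p = 0.0155), and raised the genes called from 4615 to 9730 and from 5094 to 8527. Median-of-ratios scaling moved the higher share of called genes between control stages from 50.3% to 38.6%. Without K36M FGO replicate 1, 300 genes rather than 1 differed between genotypes in FGOs, none of them a member. Leaving out 1 FGO library lowered the genes called between stages to 2844 to 2877 (control) and 3421 to 3478 (K36M). Between embryos 5 genes passed with no mean-variance trend, and in the interaction 13 passed with no filter, where at most 1 and 3 passed otherwise.

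The sign changes were among small, uncalled log2 differences. A pseudocount of 0.1 gave 0.0372 (Nanog, embryos by genotype), -0.184 (Prdm14, K36M stages) and 0.339 (Nanog, interaction). Quantile normalization gave 0.332 (Nanog, embryos), 0.381 (Nanog, interaction) and 0.0682 (Tfap2c, interaction). Median-of-ratios scaling gave -0.00535 (Sall4, FGOs), -0.131 (Pou5f1, control stages) and 0.146 (Tfap2c, interaction). Array weights gave -0.162 (Tfap2c, embryos). Adding control two-cell replicate 4 gave 0.221 (Esrrb) and 0.0144 (Zfp42) in embryos, 0.0364 (Lin28a, control stages) and 0.0155 (Nanog), 0.143 (Tfap2c) and 0.163 (Zfp42) in the interaction. With libraries left out in turn, FGO differences ran from -0.0405 to 0.0281 (Sall4) and from -0.66 to 0.283 (Zfp42). Embryo differences ran from -0.527 to 0.0887 (Esrrb), -0.806 to 0.115 (Nanog), -0.182 to 0.24 (Tfap2c) and -0.682 to 0.00427 (Zfp42). Control stage differences ran from -0.516 to 0.0834 (Esrrb) and -0.193 to 0.0107 (Lin28a), and K36M ones from -0.0915 to 0.387 (Prdm14) and -0.0188 to 0.842 (Sox2). Interactions, for which only FGO libraries were left out, ran from -0.165 to 0.236 (Klf4), -0.0748 to 0.0425 (Tfap2c) and -0.621 to 0.322 (Zfp42).

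No label pairs control and K36M samples by replicate number, and the correlations that follow rest on too few libraries to settle it. Same-numbered control and K36M libraries had deviations that correlated at 0.0145 to 0.101 in FGOs and -0.101 to 0.0968 in embryos, and 2 of 3 and 1 of 7 numbers correlated best with their own. With the number as a replicate block, the same counts of members passed in each comparison (4 and 1 in the control stages, 3 and 1 in the K36M stages), 3887 and 4199 genes were called between stages, and the block gave 0.00427 (Zfp42, embryos), -0.13 (Prdm14, K36M stages), 0.0307 (Tfap2c, interaction) and 0.153 (Zfp42, interaction). TPM keeps no depth, so a value listed at 0 cannot be given an upper limit.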

Other observations

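Control two-cell replicate 4, the embryo the study did not use, lay below the other 7 control embryos for 4 of the 10 genes and inside their range for 6. The 4 were Klf4 (TPM 127, others 219 to 716), Sall4 (64.0, others 176 to 299), Esrrb (6.36, others 12.8 to 166) and Zfp42 (18.4, others 31.8 to 295). Its Sox2 (67.8), Pou5f1 (396) and Lin28a (173) lay inside. Its oocyte genes summed to a TPM of 1112, which the other control embryos spanned, and its zygotic genes to 269, below it.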
